A study of Homo sapiens with 8 samples.

Results

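Aminoacyl-tRNA synthetases are the enzymes that join each amino acid to its transfer RNA. Most are made from separate nuclear genes for the cytosol and for the mitochondrion, the gene symbols of the mitochondrial enzymes ending in 2. Their 35 genes, 19 cytosolic and 16 mitochondrial, were taken by symbol, and 31 of them (16 cytosolic and 15 mitochondrial), with 1 probe set each, were measured here among 21448 probe sets. MARS1, QARS1, VARS1 and TARS2 were not analysed here. Expression was measured on 8 Clariom S arrays in H1299, an established line of human non-small cell lung carcinoma cells. The groups, of 2 biological replicates each, were GA-treated cells (gallic acid, a phenolic acid of tea, 120 h), untreated controls for GA, 5azaC-treated cells (5-azacytidine, a cytidine analog that blocks DNA methyltransferases, 120 h) and untreated controls for 5azaC. The controls were passage-matched and untreated, and all cells grew in RPMI1640 medium with serum. The dose of either compound is 10 μM in the paper, whereas the labels give 10 mM, and all values come from 1 cell line.

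In the cytosol, several synthetases are held together with scaffold proteins in a multisynthetase complex, while others act as free enzymes. In mammalian cells, many of the cytosolic genes are targets of the transcription factor ATF4, which is raised when amino acids run short and binds composite C/EBP-ATF DNA elements. Mitochondrial synthetases serve the small set of proteins encoded by mitochondrial DNA. GARS1 and KARS1 are exceptions to the division, since each makes the enzyme of both compartments from 1 gene.

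The seryl enzyme SARS1 and the alanyl enzyme AARS1, both cytosolic, fell after both treatments, most cytosolic synthetases did not pass the test, and none of the mitochondrial ones did. At a Benjamini-Hochberg adjusted p under 0.05 from limma, 2 of 16 cytosolic genes fell after GA (SARS1 and AARS1) and 5 fell after 5azaC (SARS1, AARS1, YARS1, IARS1 and GARS1), while none rose. At an unadjusted p under 0.05, 10 of 16 were lower and 1 higher (KARS1) after GA, and 11 were lower and 1 higher (RARS1) after 5azaC. At that threshold 6.94% of all probe sets were lower and 8.91% higher after GA, and 9.61% lower and 10.7% higher after 5azaC. Over all probe sets, 0.242% were called lower and 0.0793% higher after GA, and 0.988% lower and 0.518% higher after 5azaC. The median log2 fold change of the cytosolic list was -1.24 after GA and -1.05 after 5azaC, and that of the mitochondrial list was 0.060 and -0.23, beside 0.02 and 0.05 over all probe sets. A level at least 2-fold lower was measured in 9 of 16 cytosolic genes after GA and in the same 9 genes after 5azaC. Of all probe sets, 1.31% and 2.18% were that much lower. None of the 15 mitochondrial genes was 2-fold lower. However, 5 of them in the GA experiment and 6 in the 5azaC experiment lay below background (defined further on), so no change is read there. The 10 and 9 other mitochondrial genes had medians of 0.07 and -0.26, and none was 2-fold lower. In RNA of a whole culture, a lower level in each cell and fewer cells that express the gene cannot be told apart. Both treatments were tested in 1 fit over the 8 arrays with each treated array paired with its same-numbered control, which leaves 2 residual degrees of freedom. In the fit without the pair block, 7 cytosolic genes passed after GA and 8 after 5azaC, all lower, as did 0.928% and 2.29% of all probe sets. Leaving out 1 pair keeps 1 array per group for that treatment, so effect sizes alone are given. The cytosolic median after GA was -1.15 without GA replicate 1 and -1.06 without GA replicate 2. After 5azaC it was -0.93 without 5azaC replicate 1 and -0.99 without 5azaC replicate 2. For the other treatment such a fit equals the one on its own 4 arrays. Fitted on the 4 arrays of each comparison, 9 cytosolic genes passed after GA and SARS1 alone after 5azaC. There 620 and 22 of all probe sets were called. By the methods' paired t-test with Benjamini-Hochberg adjustment no synthetase passed after either, where 9 and 3 of all probe sets did. The study's rule was that t-test at an unadjusted p under 0.05 with a 2-fold change. By that rule, tried after seeing the data, 4 of 16 cytosolic genes passed after GA and 3 after 5azaC. So did 160 and 277 of all probe sets.

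**Figure D1:**
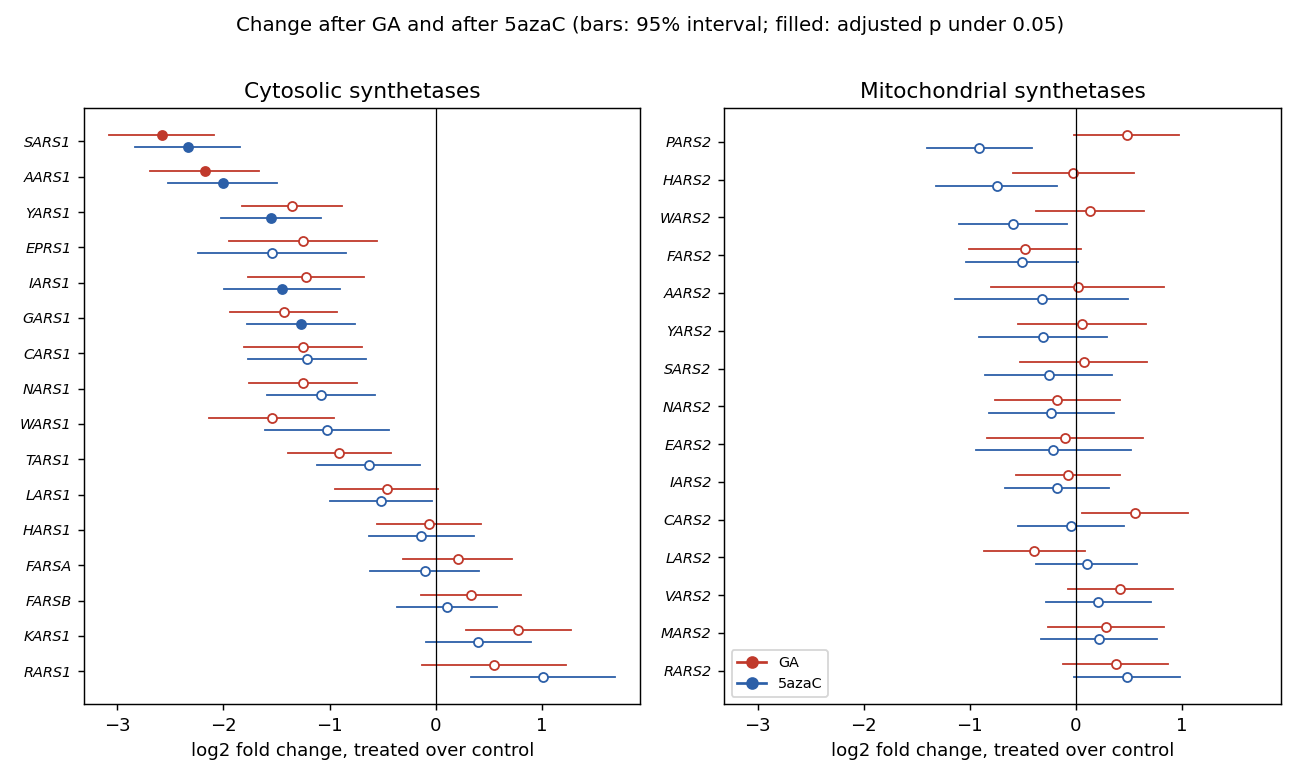
Log2 fold change (x axis, treated over control) of each cytosolic synthetase (left) and mitochondrial synthetase (right) after GA (red) and after 5azaC (blue), with bars for the 95% interval from limma and filled points where the adjusted p was under 0.05. The filled points are SARS1 and AARS1 after GA and SARS1, AARS1, YARS1, IARS1 and GARS1 after 5azaC, and the mitochondrial panel has none.

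Promoter sequences of the synthetase genes were also read. RefSeq windows from 250 bases before to 50 bases after a transcript start (GRCh38.p14) were at hand for 30 of the 35 genes, and were searched on both strands for the composite C/EBP-ATF motif TGATGNAA. It occurred in 7 of 16 cytosolic genes (AARS1, CARS1, GARS1, IARS1, MARS1, NARS1 and TARS1) and in 1 of 14 mitochondrial genes (YARS2), beside 4.46% of the 27305 genes with such a window. The stricter form TGATGCAA, which is contained in it, occurred in 6 of 16 cytosolic genes, in 0 of 14 mitochondrial genes and in 1.08% of all genes. The stretches around the match are shown for the measured genes, since they include 3 of the called genes and the mitochondrial match, with the match in capitals and the gene's own strand read 5′ to 3′. Those of AARS1 (chr16:70289664-70289723), CARS1 (chr11:3057418-3057455), IARS1 (chr9:92293698-92293740), NARS1 (chr18:57621815-57621852) and YARS2 (chr12:32756065-32756124) lie on the minus strand. Those of GARS1 (chr7:30594815-30594874) and TARS1 (chr5:33440937-33440974) lie on the plus strand.
AARS1: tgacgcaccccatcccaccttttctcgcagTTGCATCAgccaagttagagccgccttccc
CARS1: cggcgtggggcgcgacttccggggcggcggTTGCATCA
GARS1: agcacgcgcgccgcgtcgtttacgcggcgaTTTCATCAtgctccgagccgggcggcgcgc
IARS1: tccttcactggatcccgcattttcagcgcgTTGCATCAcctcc
NARS1: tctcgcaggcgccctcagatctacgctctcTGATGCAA
TARS1: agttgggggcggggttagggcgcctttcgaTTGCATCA
YARS2: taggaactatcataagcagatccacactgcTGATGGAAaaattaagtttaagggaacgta

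Counted from the annotated transcript start, the match began at position -187 in AARS1, -33 in GARS1, -13 in IARS1, -2 in CARS1, 3 in TARS1, 15 in NARS1 and -197 in YARS2. The 6 measured cytosolic genes with a match had log2 fold changes between -2.18 and -0.91 after GA, with a median of -1.25, and between -2.01 and -0.63 after 5azaC, with a median of -1.24. The 8 measured cytosolic genes whose windows hold no match ranged from -2.58 to 0.78 after GA, with a median of 0.07, and from -2.34 to 1.01 after 5azaC, with a median of -0.12. The largest fall of either comparison among the synthetases, that of SARS1, is among these 8 genes. So are EPRS1 (-1.25 after GA and -1.54 after 5azaC) and WARS1 (-1.54 and -1.02), both at least 2-fold lower. HARS1, FARSA, FARSB, KARS1 and RARS1 ranged from -0.06 to 0.78 after GA and from -0.13 to 1.01 after 5azaC. TARS1, which has a match, was not 2-fold lower (-0.91 and -0.63). YARS1 and LARS1 had no window. A match of 8 letters is a description of the window and was not tested as a binding site.

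SARS1, which charges the transfer RNA for serine and, in the cytosol, also the one for selenocysteine, had log2 signals of 10.33 and 10.15 in GA-treated cells, against 12.74 and 12.91 in their controls. In 5azaC-treated cells it had 11.29 and 11.18, against 13.69 and 13.46 in their controls. The treated arrays lay far below the controls in both experiments, with no overlap. Relative to its controls SARS1 was 5.98-fold lower with GA (log2 fold change -2.58, standard error 0.21, adjusted p = 0.00841 from limma) and 5.05-fold lower after 5azaC (-2.34, standard error 0.21, adjusted p = 0.00808 from limma). Ordered over all 21448 probe sets, this was the 11th lowest log2 fold change after GA and the 18th lowest after 5azaC. AARS1, the cytosolic enzyme for alanine, had 12.98 and 12.98 in GA-treated cells, against 15.21 and 15.11 in their controls. In 5azaC-treated cells it had 13.32 and 13.08, against 15.08 and 15.33 in their controls. With GA its level was 4.53-fold lower (log2 fold change -2.18, adjusted p = 0.0171 in limma) and with 5azaC 4.02-fold lower (-2.01, adjusted p = 0.0155), and neither pair of groups overlapped. Its probe set was the 21st lowest in log2 fold change after GA and the 39th lowest after 5azaC.

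YARS1, IARS1 and GARS1 passed the test after 5azaC only, although their changes after GA were of a like size and their differences between the treatments did not pass (adjusted p = 0.908, 0.911 and 0.935 from limma). YARS1, the cytosolic enzyme for tyrosine, had log2 signals of 12.47 and 12.33 in 5azaC-treated cells, against 14.09 and 13.82 in their controls. In GA-treated cells it had 12.33 and 12.32, against 13.65 and 13.72 in their controls. It fell by 1.55 on the log2 scale after 5azaC (adjusted p = 0.0237 from limma), and its log2 fold change after GA was -1.35 (adjusted p = 0.0554). IARS1, the enzyme for isoleucine and a member of the multisynthetase complex, had 12.09 and 12.25 in 5azaC-treated cells, against 13.42 and 13.82 in their controls. In GA-treated cells it had 12.40 and 12.13, against 13.31 and 13.66 in their controls. It fell by 1.45 after 5azaC (adjusted p = 0.0413), and its log2 fold change after GA was -1.22 (adjusted p = 0.086). In all of these groups the treated arrays lay below their controls.

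GARS1, the glycyl enzyme of both compartments, had log2 signals of 14.47 and 14.55 in 5azaC-treated cells, against 15.90 and 15.66 in their controls. In GA-treated cells it had 14.15 and 14.29, against 15.73 and 15.57 in their controls. It fell by 1.27 after 5azaC (adjusted p = 0.0432 from limma, and 0.0626 after quantile normalization), and its log2 fold change after GA was -1.43 (adjusted p = 0.0563). KARS1, the lysyl enzyme and the other gene of both compartments, ran the opposite way, with the treated arrays above their controls. It had 14.13 and 14.33 in GA-treated cells, against 13.17 and 13.72 in their controls, and 14.84 and 14.86 in 5azaC-treated cells, against 14.40 and 14.49 in their controls. Its log2 fold changes were 0.78 after GA (adjusted p = 0.148) and 0.40 after 5azaC (adjusted p = 0.337), so neither passed the test.

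A further 4 cytosolic genes had levels at least 2-fold lower after both treatments and passed the test after neither. For WARS1, the tryptophanyl enzyme, which interferon also induces, the log2 fold changes were -1.54 after GA (adjusted p = 0.068 from limma) and -1.02 after 5azaC (adjusted p = 0.0884). WARS1 differed between the GA replicates, at 12.15 and 11.44, against 13.28 and 13.40 in the controls. EPRS1, a single protein with glutamyl and prolyl enzyme activities, had -1.25 after GA (adjusted p = 0.115) and -1.54 after 5azaC (adjusted p = 0.0552), with 10.92 and 12.12 on the 5azaC arrays, against 13.06 and 13.06 on their controls. The cysteinyl enzyme CARS1 had -1.25 after GA and -1.21 after 5azaC (adjusted p = 0.0839 and 0.056), and the asparaginyl enzyme NARS1 had -1.25 and -1.08 (adjusted p = 0.0729 and 0.0601). The 5azaC replicates of CARS1 lay apart as well, at 10.82 and 9.85, against 11.71 and 11.39 in the controls. TARS1, the threonyl enzyme, had smaller log2 fold changes of -0.91 and -0.63, and LARS1, the leucyl enzyme, had -0.46 and -0.51. Treated arrays lay below their controls without overlap in 11 of 16 cytosolic genes after GA and in 11 of 16 after 5azaC, as they did in 21.4% and 22.2% of all probe sets. They lay above their controls without overlap in 3 genes after GA (FARSB, KARS1 and RARS1) and in 2 after 5azaC (KARS1 and RARS1), and in 25.3% and 28.1% of all probe sets.

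**Figure D2:**
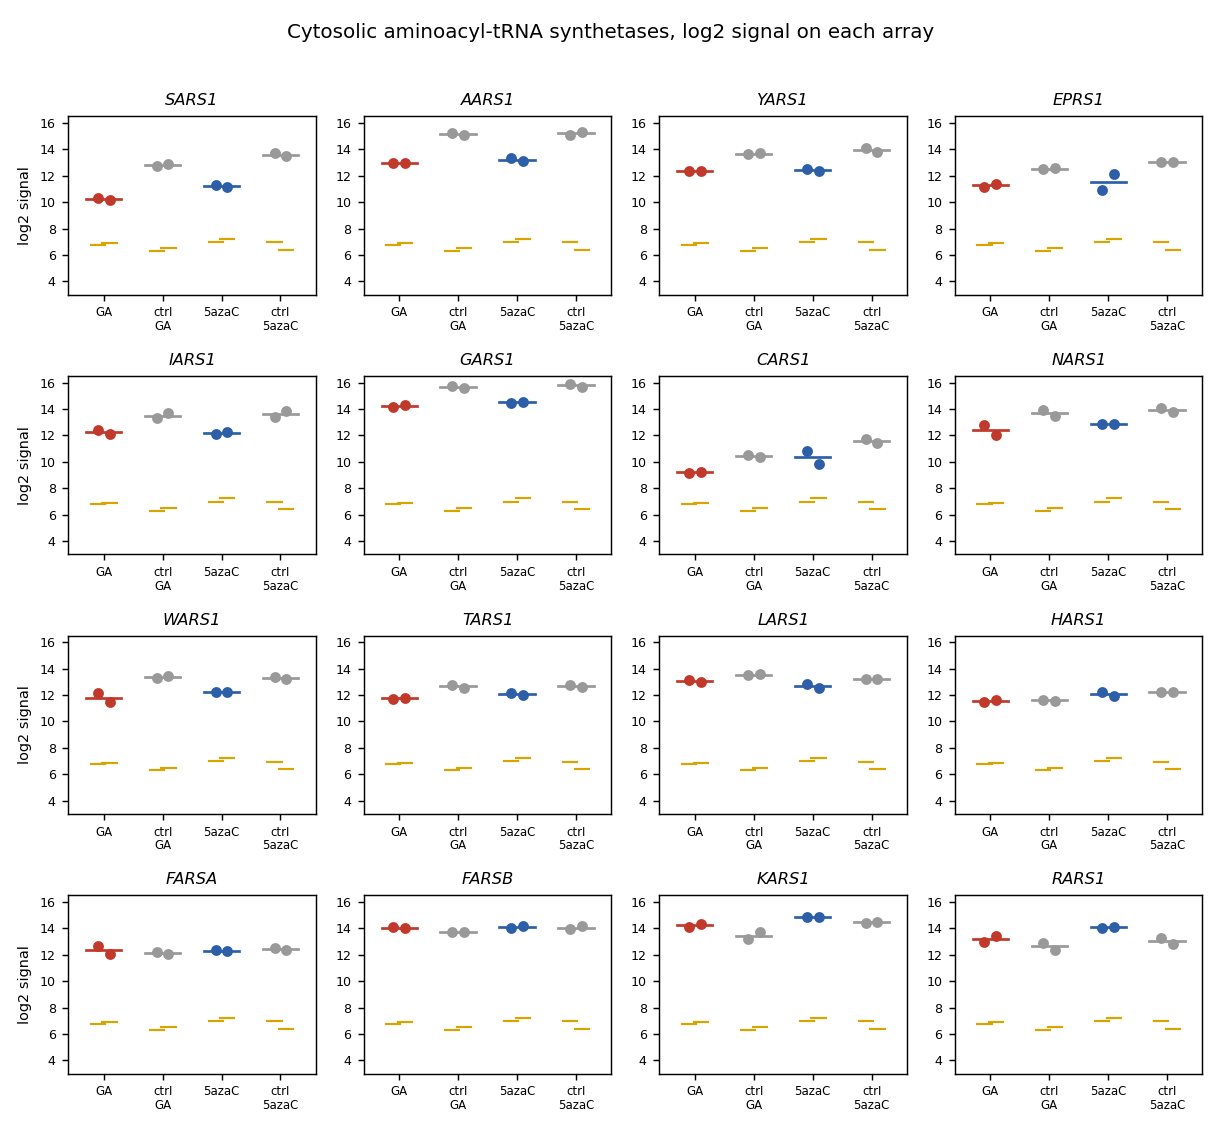
Log2 signal (y axis) of the 16 cytosolic synthetases on each of the 8 arrays, with GA in red, 5azaC in blue and their controls in grey, each point 1 array, the short bars of the same colour the group mean, and the yellow bars the 95th percentile of the negative-control probe sets of that array. SARS1 lies at 10.15 and 10.33 in GA-treated cells, against 12.74 and 12.91 in their controls, whereas the points of HARS1 and FARSA overlap between treated cells and controls.

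The cytosolic synthetases with the smallest changes were those for histidine and phenylalanine. HARS1 had log2 signals of 11.46 and 11.60 in GA-treated cells, against 11.64 and 11.55 in their controls, and of 12.27 and 11.93 in 5azaC-treated cells, against 12.26 and 12.20 in their controls. The log2 fold change of HARS1 was -0.06 for GA (95% interval -0.56 to 0.43) and -0.13 for 5azaC (-0.63 to 0.36), and the groups overlapped. FARSA and FARSB, the alpha and beta subunits, together make the phenylalanyl enzyme of the cytosol. FARSA had 12.63 and 12.04 in GA-treated cells, against 12.18 and 12.07 in their controls, and 12.36 and 12.26 in 5azaC-treated cells, against 12.50 and 12.32 in their controls. FARSB had 14.06 and 14.03 in GA-treated cells, against 13.72 and 13.70 in their controls, and 14.05 and 14.20 in 5azaC-treated cells, against 13.91 and 14.14 in their controls. The groups overlapped except for FARSB after GA, where the treated arrays were higher. Their log2 fold changes were 0.21 and 0.34 after GA and -0.10 and 0.10 after 5azaC. The 95% intervals reached from -0.30 to 0.72 and from -0.13 to 0.81 after GA, and from -0.62 to 0.41 and from -0.37 to 0.58 after 5azaC. These intervals leave out a 2-fold change in either direction, whereas those of SARS1 and AARS1 lie wholly below a 2-fold fall. RARS1, the arginyl enzyme of the multisynthetase complex, had 12.95 and 13.41 in GA-treated cells, against 12.92 and 12.35 in their controls, and 14.01 and 14.11 in 5azaC-treated cells, against 13.25 and 12.83 in their controls. Its log2 fold changes were 0.55 after GA (adjusted p = 0.417 from limma) and 1.01 after 5azaC (adjusted p = 0.116), the highest of the 16 genes after 5azaC and the only 2-fold higher level among them. None of the 16 was 2-fold higher after GA, and 1.39% of all probe sets were that much higher after GA and 1.74% after 5azaC.

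The cytosolic enzymes were also divided by complex and by structural class. Of the 5 measured members of the multisynthetase complex, IARS1 fell after 5azaC and none passed after GA, with medians of -0.46 after GA and -0.51 after 5azaC and with EPRS1, IARS1 and LARS1 negative and KARS1 and RARS1 positive in both comparisons. Of the 11 measured enzymes outside it, 2 fell after GA and 4 fell after 5azaC, with medians of -1.25 and -1.08, where 0.242% and 0.988% of all probe sets fell. Class I enzymes bind ATP with a Rossmann fold and class II enzymes with an antiparallel beta sheet. The 6 measured class I genes had medians of -1.24 after GA and -1.12 after 5azaC, and the 9 class II genes, which hold both SARS1 and AARS1 as well as HARS1, FARSA and FARSB, had -0.91 and -0.63. EPRS1 (-1.25 after GA and -1.54 after 5azaC), with its glutamyl and prolyl activities, was placed in neither class list. The division into lists was not tested, and each class spanned genes that were lower and genes that were higher than their controls.

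On the mitochondrial side, the signal stood closer to background. Background was taken as the 95th percentile over 612 negative controls, which lay between 6.31 and 7.23 on the arrays. All 16 cytosolic genes were above it on every array, against 6 of 15 mitochondrial genes. AARS2, EARS2, LARS2, MARS2 and PARS2 lay below it on every array and VARS2 on every array of the 5azaC experiment, so no change is read for them there. The remaining 10 genes in the GA experiment, above it on at least 1 array of each group, had log2 fold changes between -0.48 and 0.56 with a median of 0.07, and the 9 such genes in the 5azaC experiment had values between -0.75 and 0.48 with a median of -0.26. The 6 genes above it on all arrays (CARS2, IARS2, RARS2, SARS2, WARS2 and YARS2) had medians of 0.10 after GA and -0.22 after 5azaC. FARS2, HARS2 and NARS2 missed that filter on treated arrays only, so the set of 6 depends on the treated values. None of the 15 was called by limma, with 1 at an unadjusted p under 0.05 after GA (CARS2) and 3 after 5azaC (PARS2, HARS2 and WARS2), where 15.8% and 20.3% of all probe sets had such a p. By the methods' paired t-test 0 after GA and 1 after 5azaC had an unadjusted p under 0.05. Without the pair block, PARS2 was called after 5azaC (adjusted p = 0.0434), although it lay below background, at 4.88 and 5.10 in 5azaC-treated cells, against 5.81 and 5.99 in their controls. In GA-treated cells PARS2 had 6.05 and 6.03, against 5.38 and 5.74 in their controls.

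IARS2 and RARS2, for isoleucine and arginine, were the mitochondrial genes furthest above background. Of their cytosolic partners, IARS1 lay below its controls and RARS1 above them after both treatments. IARS2 had log2 signals of 11.91 and 12.08 in GA-treated cells, against 12.14 and 12.01 in their controls, and of 12.50 and 12.59 in 5azaC-treated cells, against 12.58 and 12.87 in their controls. IARS2 had a log2 fold change of -0.08 with GA (95% interval -0.57 to 0.42) and of -0.18 with 5azaC (-0.67 to 0.31), intervals that leave out the log2 fold changes of IARS1, -1.22 and -1.45. RARS2 had 11.98 and 12.38 in GA-treated cells, against 11.79 and 11.82 in their controls, and 12.40 and 13.00 in 5azaC-treated cells, against 11.98 and 12.45 in their controls. Its log2 fold changes were 0.38 and 0.48 (adjusted p = 0.452 and 0.261 from limma). The arrays of RARS2 after 5azaC overlapped their controls, while those after GA lay above them.

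After 5azaC, PARS2 aside, HARS2 and WARS2 had the lowest log2 fold changes of the mitochondrial enzymes, and HARS2 was above background on only 1 of the 2 5azaC arrays. HARS2 had 7.58 and 6.76 in 5azaC-treated cells, against 7.99 and 7.85 in their controls, and 7.41 and 7.29 in GA-treated cells, against 7.27 and 7.48 in their controls. Its log2 fold change was -0.75 after 5azaC (adjusted p = 0.151 from limma) and -0.02 after GA (adjusted p = 0.976). HARS1 and HARS2 are neighbours that are read in opposite directions from starts 85 bases apart in the RefSeq windows. WARS2, the mitochondrial enzyme for tryptophan, had 8.47 and 7.77 in 5azaC-treated cells, against 8.86 and 8.57 in their controls, and a log2 fold change of -0.59 (adjusted p = 0.188). After GA it had 8.10 and 8.03, against 8.08 and 7.80 in the controls. In both genes 5azaC replicate 2 lay well below replicate 1. Over the 15 mitochondrial genes, treated arrays lay apart from their controls below in 2 and above in 4 genes after GA, and below in 5 and above in 3 genes after 5azaC, counts that include genes below background. Over all probe sets these shares were 21.4% and 25.3% after GA and 22.2% and 28.1% after 5azaC, so the mitochondrial counts are near those of other genes.

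**Figure D3:**
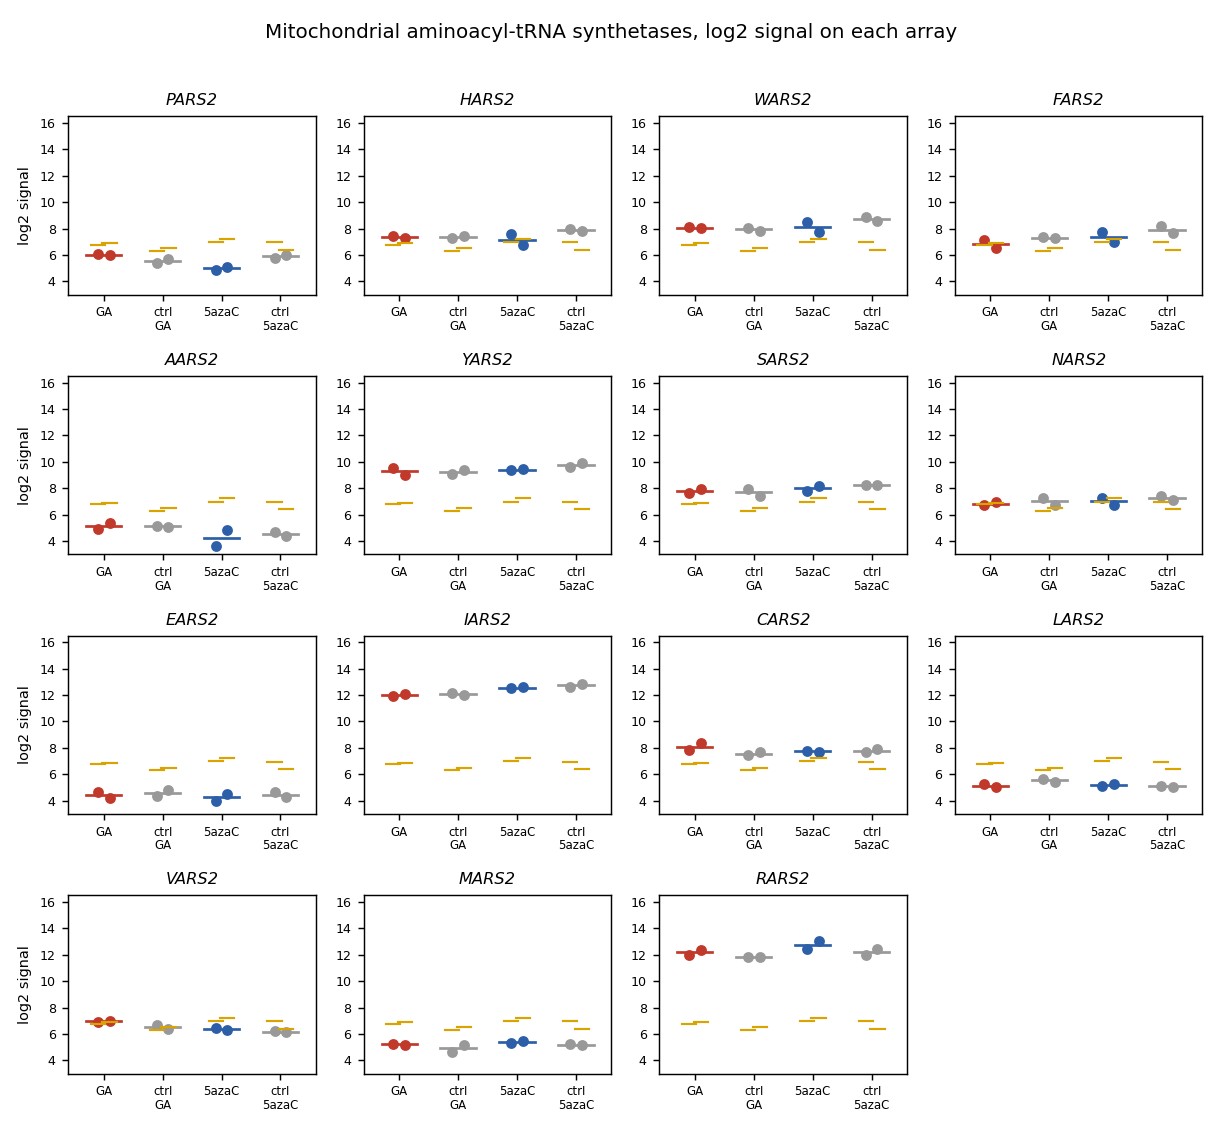
Log2 signal (y axis) of the 15 mitochondrial synthetases on each of the 8 arrays, with GA in red, 5azaC in blue and their controls in grey, each point 1 array, the short bars of the same colour the group mean, and the yellow bars the 95th percentile of the negative-control probe sets of that array. AARS2, EARS2, LARS2, MARS2 and PARS2 lie below the yellow bars on every array, and IARS2 and RARS2 lie far above them.

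Enzymes of the same amino acid in both compartments were then set side by side, in 14 couples that share no gene except EPRS1, with partners for glutamate and for proline, and FARS2, the partner of both FARSA and FARSB. The log2 fold change of the cytosolic gene was lower than that of its mitochondrial partner in 11 of 14 couples after GA and in 10 of 14 after 5azaC, with median differences of -1.15 and -0.74. These counts include alanine, glutamate, proline and leucine, whose mitochondrial genes lay below background on every array. All of those couples counted as lower after both treatments. The difference was largest for serine, at -2.65 after GA and -2.08 after 5azaC, where SARS1 fell and SARS2 had log2 fold changes of 0.07 and -0.26. SARS2 had signals of 7.64 and 7.92 in GA-treated cells, against 7.96 and 7.45 in their controls. Background on these GA arrays was 6.78 and 6.89, so a fall of SARS2 as large as that of SARS1 could not be read above it. In the 6 couples with both partners above background on every array (cysteine, isoleucine, arginine, serine, tryptophan and tyrosine), the cytosolic gene was lower in 5 after GA and in 5 after 5azaC, all but arginine. FARS2, NARS2 and HARS2 missed this filter on treated arrays only, so the choice of the 6 couples depends on the treated values. Partners above background on at least 1 array of each group, FARS2, NARS2 and HARS2 among them, made 10 couples. In these the cytosolic gene was lower in 7 after GA and in 6 after 5azaC, with median differences of -1.11 and -0.64. The couples for phenylalanine and arginine ran the other way after both treatments. With few arrays these differences between genes were not tested.

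**Figure D4:**
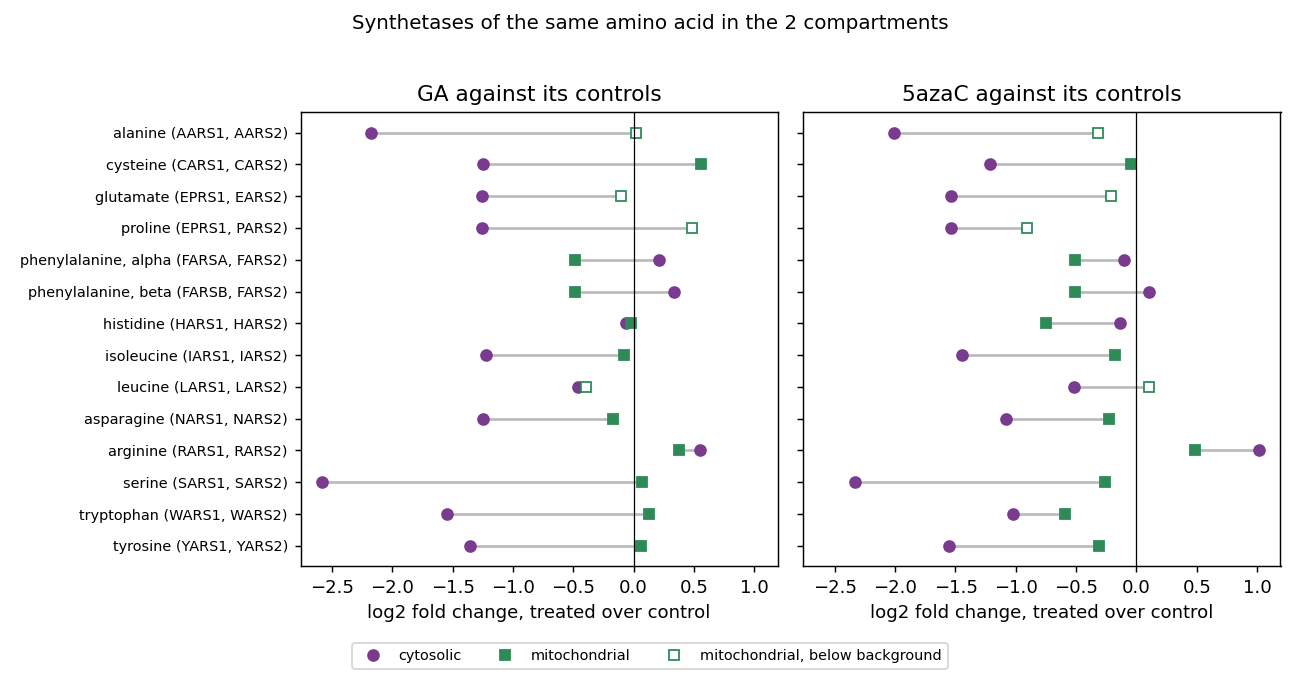
Log2 fold change (x axis, treated over control) of cytosolic (circles) and mitochondrial (squares) synthetases of the same amino acid (rows), after GA (left) and after 5azaC (right), with open squares for mitochondrial genes below background on every array of a group. The circle lies left of the square in 11 of 14 rows after GA and in 10 of 14 after 5azaC, rows with open squares included, with the widest gap for serine.

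The cytosolic synthetases lay in much the same order after both treatments, led by SARS1 and AARS1. Between the log2 fold changes for GA and those for 5azaC, Pearson's r was 0.958 and Spearman's rho 0.90 across the 16 cytosolic genes, where genes are not replicates. Across the 15 mitochondrial genes they were 0.188 and 0.171, with genes below background included, and across the 6 above it on every array they were 0.534 and 0.429. The treatments were set against separate controls, but the genes of 1 array share its hybridization. In the test of the difference between the effects none of the 31 genes was called by limma, with 1 at an unadjusted p under 0.05 (PARS2). Of all probe sets 0.0% were called and 6.67% had an unadjusted p under 0.05. For SARS1 the GA effect minus the 5azaC effect was -0.24 (95% interval -0.94 to 0.46), for AARS1 it was -0.17 (-0.90 to 0.55), and for WARS1, the widest gap toward GA in the cytosolic list, it was -0.52 (-1.35 to 0.31).

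In untreated cells the experiments had different baselines. The log2 signal of the controls for GA minus that of the controls for 5azaC had a median of -0.18 over all probe sets, and 19.3% of them were called in a fit without the pair block. Among the synthetases 3 were called, all lower in the controls for GA, with differences of -1.10 for CARS1, -0.997 for KARS1 and -0.75 for SARS1 (adjusted p = 0.0278, 0.0161 and 0.0298 from limma). After quantile normalization none of the 31 was called (CARS1 -0.72, KARS1 -0.68 and SARS1 -0.38). After median centring these 3 were not called either, and LARS2, which lay below background, was called higher in the controls for GA (0.70, adjusted p = 0.0427). Each treatment was therefore read against its own controls. As a check of the cells, the keratins KRT8 and KRT18 and the intermediate filament gene VIM were above background on every array, and PTPRC, PECAM1 and COL1A1, markers of leukocytes, endothelium and fibroblasts, lay below it on every array. Both keratins rose after 5azaC, KRT8 by 1.93 and KRT18 by 1.34 on the log2 scale (adjusted p = 0.0203 and 0.042 from limma), and after GA their log2 fold changes were 0.81 and 1.03 (adjusted p = 0.161 and 0.098). KRT18 was lower in the controls for GA than in those for 5azaC (-1.63, adjusted p = 0.00295), and the part of these differences in the synthetase results was not tested.

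Partners of the synthetases and other genes of transfer RNA charging had medians near 0. Of 11 measured partners and accessories, none was called by limma after either treatment, with 2 at an unadjusted p under 0.05 after each, near the 15.8% and 20.3% of all probe sets, and none called without the pair block, and the medians were -0.11 after GA and -0.08 after 5azaC. AIMP1, a scaffold of the multisynthetase complex, had log2 signals of 12.23 and 12.36 in GA-treated cells, against 11.87 and 12.49 in their controls, and log2 fold changes of 0.11 after GA and -0.11 after 5azaC (adjusted p = 0.865 and 0.836). SEPSECS, which completes selenocysteine on the transfer RNA charged by SARS1, had -0.95 after GA and -0.58 after 5azaC (adjusted p = 0.145 and 0.255), with 7.01 and 6.82 in GA-treated cells, against 7.83 and 7.90 in their controls. DTD1, which removes D-amino acids from transfer RNA, had -0.43 and -0.71 (adjusted p = 0.373 and 0.123). EIF2AK4, the kinase GCN2 that senses uncharged transfer RNA, had -0.04 and -0.04 (adjusted p = 0.959 and 0.946), and MTFMT, which formylates the mitochondrial initiator, had 0.56 and 0.62 (adjusted p = 0.309 and 0.201).

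Translation factors gave medians near 0, without calls by limma. Of 15 factors of cytosolic initiation, elongation and termination, 2 had an unadjusted p under 0.05 after GA and 3 after 5azaC, with medians of -0.09 and -0.02. Of 10 mitochondrial translation factors, 2 had an unadjusted p under 0.05 after GA and 5 after 5azaC, with medians of -0.04 and -0.03. Over all probe sets the share was 15.8% after GA and 20.3% after 5azaC. Genes that supply amino acids had lower medians than the cytosolic synthetases. Of 12 enzymes of serine, asparagine, proline and one-carbon metabolism, 4 fell after GA and 9 fell after 5azaC, with medians of -1.63 and -1.92. Of 11 amino acid transporters, 6 fell after GA and 7 fell after 5azaC, with medians of -1.66 and -1.98, against 0.242% of all probe sets that fell after GA and 0.988% after 5azaC. By the median log2 fold change of the lists the cytosolic synthetases, at -1.24 and -1.05, lay between these genes and the translation factors, and this order was not tested.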

How the data were processed

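The authors processed Clariom S scans in Affymetrix Expression Console 1.4 by RMA after Signal Space Transformation, and the deposited values are log2 signals of probe sets. The sources used here give no genome build for them. After removal of 2903 control features from 24351, tests covered 21448 probe sets, with limma 3.58.1 (lmFit, eBayes) in R 4.3.3, with a term for each pair (following the paired test of the study's methods) and the effects of GA and 5azaC. The residual degrees of freedom were 2 and the prior ones 5.56. P-values were adjusted by Benjamini-Hochberg over all probe sets. Deviations of same-numbered replicates correlated at -0.023 for GA and 0.0289 for 5azaC. Symbols came from the platform's probe table (17709 probe sets with 1 symbol, none with several, 3739 unnamed here). The analysis was tested on simulated data. Replicates are those that the labels call biological, and nothing further is said of their cultures, so the p-values measure the spread between these arrays. Members and lists were chosen with earlier results of these data known, so lists are described by counts and medians. Values were printed for called members, the 3 mitochondrial genes with the largest changes, the 3 cytosolic genes with the smallest, the genes of both compartments and, chosen after their values were seen, IARS2, RARS2, SARS2, RARS1, WARS1, EPRS1 and CARS1. Array depth was read as signal over background, and precision is limited by having 2 arrays a group. Alternatives changed the block, the arrays fitted, the normalization, the filter, the variance model, the test and the controls, and left out each replicate.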

Additional observations from a re-analysis of the deposited data

How the results depend on the processing

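The number of arrays limits these results, and calls depended on how the spread was estimated, while SARS1, AARS1, YARS1, IARS1 and GARS1 had negative log2 fold changes in every setting run. Probe sets called after GA and after 5azaC, in that order, numbered 69 and 323. They numbered 425 and 889 with no replicate block, 620 and 22 on the 4 arrays of each comparison, 388 and 906 without the dimmest 33% of probe sets, 1210 and 1838 with trend and robust settings, 151 and 780 with all untreated arrays as controls, and 9 and 3 by the methods' paired t-test. On the 4 arrays with no replicate block 142 were called for GA, and the t-test unadjusted with a 2-fold change gave 160 for GA, a setting chosen after seeing the data. Cytosolic synthetases called, 2 and 5, became 7 and 8 with no replicate block, 9 and 1 on the 4 arrays, 8 and 8 without the dimmest probe sets, 11 and 12 with trend and robust settings and 0 and 0 by the t-test. For GA they were 7 with all untreated arrays and 7 on the 4 arrays with no replicate block. With trend and robust settings KARS1 after GA and RARS1 after 5azaC were called higher. RARS1 was also called higher after 5azaC with all untreated arrays as controls. Mitochondrial synthetases called after 5azaC were 1, PARS2, with no replicate block and without the dimmest probe sets. With all untreated arrays the medians were -1.33 (cytosolic, GA), -0.82 (cytosolic, 5azaC), -0.16 (mitochondrial, GA) and -0.10 (mitochondrial, 5azaC), and the mitochondrial median for 5azaC was -0.21 after quantile normalization and -0.25 after median centring. Differences between the effects called were 4 with all untreated arrays, and 2220 probe sets differed between the controls after quantile normalization, against 4134. Each fit without a pair keeps 1 array per group for that treatment, assumed to vary like the others. Without a GA replicate, 1 or 2, no synthetase was called after GA and SARS1 alone after 5azaC. Without 5azaC replicate 1, 9 were called after GA and AARS1 and SARS1 after 5azaC, and without 5azaC replicate 2, 9 after GA and AARS1, EPRS1, SARS1 and YARS1 after 5azaC. Over these fits the probe sets called ran from 0 to 620 for GA, from 22 to 257 for 5azaC and from 0 to 3 for the difference. The cytosolic medians ran from -1.24 to -1.06 for GA and from -1.05 to -0.93 for 5azaC, and the mitochondrial ones from 0.060 to 0.23 and from -0.23 to -0.18. Deviations of same-numbered arrays correlated at -0.023 and 0.0289, so the pairing rests on the labels and the methods. No measured member has more than 1 probe set, so averaging probe sets changed nothing, and leaving out GARS1 and KARS1 left the cytosolic medians at -1.24 and -1.05. The cause of these differences was not tested.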
